A study of Homo sapiens with 8 samples.

Results

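Antigen presentation by HLA class I was followed through 9 genes of the 28395 in the table: the heavy chains HLA-B, HLA-C and HLA-E, the light chain B2M, the peptide transporter genes TAP1 and TAP2, the immunoproteasome subunits PSMB8 and PSMB9, and the transactivator NLRC5. They were picked by name, and each matched 1 Entrez gene. Only 2 of the 9 could be measured well. B2M and NLRC5, on chromosomes 15 and 16, had 22537 and 2779 reads over all libraries. The other 7 lie together on chromosome 6, and their totals ran from 5 reads for TAP1 to 518 for HLA-B. Genes of every kind in that stretch of chromosome 6 were as low, and the values of these 7 are given here as counts in this table, not as expression levels of A-498 cells. No member passed the test between ANXA4 knockout (KO) and control.

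The cells were A-498, an established human kidney cancer line, grown for 1 day to a non-confluent state. There were 8 polyA RNA-seq libraries from 4 derived lines with 2 replicates each. Non-targeting guide RNAs, a different one each, had been given to the first pair (control line 1, control line 2), labelled wild type. The other pair, labelled ANXA4 knockout, had received guide RNAs against ANXA4, again 1 each (KO guide 1, KO guide 2). Each guide was represented by 1 line, so a guide and a line cannot be told apart, and the labels do not say whether a line was 1 clone or whether replicates were separate cultures.

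HLA class I molecules show peptides from inside the cell to CD8 T cells. A heavy chain (such as HLA-B, HLA-C or the less variable HLA-E, which NK cells also read) pairs with beta-2 microglobulin, made from B2M. The proteasome cuts proteins, and its interferon-induced form uses PSMB8 and PSMB9 in place of standard subunits. TAP1 and TAP2 form the channel that carries the peptides into the endoplasmic reticulum, where tapasin and other chaperones load them. NLRC5 is a nuclear protein that switches on class I heavy chain, B2M, TAP1 and PSMB9 promoters together, and interferon gamma raises the whole set.

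RefSeq promoter windows (GRCh38.p14) were found for 7 of the 9 members. The 250 bases before the start are shown for HLA-B and HLA-C, the heavy chains with the most reads, and for B2M, the one gene of the complex outside chromosome 6. Each runs 5′ to 3′ on the gene's strand, and capitals mark the letters of the motifs searched on both strands. HLA-B is chr6:31357180-31357429, minus strand, HLA-C is chr6:31272093-31272342, minus strand, and B2M is chr15:44711267-44711516, plus strand.
HLA-B: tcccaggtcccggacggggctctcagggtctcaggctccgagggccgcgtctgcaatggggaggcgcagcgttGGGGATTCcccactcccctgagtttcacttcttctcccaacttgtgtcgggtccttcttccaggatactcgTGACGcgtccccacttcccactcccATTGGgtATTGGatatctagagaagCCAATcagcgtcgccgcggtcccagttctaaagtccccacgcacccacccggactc
HLA-C: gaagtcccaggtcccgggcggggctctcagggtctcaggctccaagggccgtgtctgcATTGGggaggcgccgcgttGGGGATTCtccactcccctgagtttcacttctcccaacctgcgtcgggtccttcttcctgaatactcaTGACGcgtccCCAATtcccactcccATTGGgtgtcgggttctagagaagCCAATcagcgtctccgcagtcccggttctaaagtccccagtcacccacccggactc
B2M: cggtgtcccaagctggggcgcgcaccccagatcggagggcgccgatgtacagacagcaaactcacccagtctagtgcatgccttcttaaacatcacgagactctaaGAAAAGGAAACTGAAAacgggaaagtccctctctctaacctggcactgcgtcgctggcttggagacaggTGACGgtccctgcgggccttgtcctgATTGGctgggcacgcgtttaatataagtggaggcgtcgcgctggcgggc

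The HLA-B and HLA-C windows were identical in 226 of 254 aligned columns (89.0%). Both hold GGGGATTC, the letters of the kappa B site of class I promoters, which occur in 0.765% of 27305 promoter windows of that length and were searched after the sequences had been seen. The form GGGANTTCC was in 1.60% of windows and in none printed here. All 3 windows hold TGACG, the core of a cyclic AMP response element (21.7% of windows), and CCAAT or its reverse ATTGG (33.0%). The interferon response letters GAAA, 2 or 3 bases and GAAA were in 5.33% of windows. They occur in 2 overlapping copies in B2M, in 2 overlapping copies before the first start of TAP1 and in 1 copy in TAP2. TTCNNNGAA, the letters of the interferon gamma activated site, was in 6.78% of windows, in none printed here, and once each in the windows of the second starts of TAP1 and PSMB8. These are matches of letters only.

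Depth was 15784890 to 22631588 reads per library, and 1 read was worth 0.783 to 1.21 normalized counts. ANXA4, the targeted gene, was compared with the labels at the level of its transcript. Its normalized counts in the 2 replicates were 2821 and 3614 (control line 1), 3858 and 6773 (control line 2), 236 and 234 in the line labelled KO guide 1, and 3433 and 4142 in the line labelled KO guide 2. The transcript was thus low in 1 of the 2 KO-labelled lines, and directions given for KO follow the labels. RNA counts do not show whether the protein was lost in either of these lines. All 8 renal tubular markers, PAX8 and PAX2 among them, passed the filter on low values, and their summed value was 28651 to 37520 in control and 41784 to 50418 in KO-labelled libraries, with no overlap. Of 8 leukocyte markers 2 did (CD68 and ITGAM), and CD3E had 0 reads. The summed value of the leukocyte markers was 1825 to 4307 in control and 3224 to 4486 in KO-labelled libraries, nearly all of it CD68. Of 6 endothelial and fibroblast markers only PDGFRB passed, CDH5 and LUM had 0 reads, and the sum was at most 26.0.

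HLA-B (Entrez gene 3106, chromosome 6, 31353875 to 31357179) had normalized counts of 80.9 and 78.0 (control line 1), 51.6 and 65.7 (control line 2), 36.8 and 69.5 in KO guide 1 and 46.5 and 94.2 in KO guide 2. The lowest and the highest library were both KO-labelled, so the arms overlapped. HLA-C (Entrez gene 3107, chromosome 6, 31268749 to 31272092) had 39.5 and 89.4, then 49.9 and 48.7, then 36.8 and 40.5, and 53.8 and 49.5 in the same order. Replicate 2 of control line 1 stood above the other 7 libraries, which lay between 36.8 and 53.8. Per kilobase of exon, HLA-B averaged 21.4 and HLA-C 20.3 normalized counts, against 472 for the light chain B2M, which was 22.0-fold and 23.2-fold higher. Of the 100-base words of the longest transcript, 12.2% for HLA-B and 0.225% for HLA-C also occur in transcripts of other genes (GENCODE 29), and how reads that match several genes were counted is not given in the sources used here.

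HLA-E (Entrez gene 3133, chromosome 6, 30489509 to 30494194) had 4.60 and 71.8 normalized counts in control line 1, 10.3 and 6.80 in control line 2, 3.13 and 2.07 in KO guide 1 and 42.4 and 6.04 in KO guide 2. Of its 144 reads, 69 were in replicate 2 of control line 1 and 41 in replicate 1 of KO guide 2, against 2 to 12 in each of the other 6 libraries. The other replicate of each of these lines held 5 reads. Reads piled up in single libraries elsewhere in the stretch between HLA-F and TAPBP too. Of its 34 genes with at least 20 reads, 7 (20.6%) had over 50% of them in 1 library, as did 30 of 3007 other protein-coding genes (0.998%) within the same range of totals. DHX16, an RNA helicase, had 100 of 131 reads in replicate 1 of KO guide 1, and the stress ligand MICA had 54 of 63 in replicate 2 of that line.

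The transporter and the immunoproteasome subunits were near or at the floor, set at 3 reads per library. TAP1 (Entrez gene 6890) had at most 2 reads in a library and 0 in 5 of 8. PSMB9 (Entrez gene 5698), which replaces a catalytic subunit of the standard proteasome, had at most 3 reads. TAP2 (Entrez gene 6891) had 1 to 7 reads, and PSMB8 (Entrez gene 5696) had 0 to 7, with the 7 in replicate 2 of KO guide 1. None of these 4 genes passed the filter, so 5 of the 9 members were tested, and no fold is given for the others. TAP1 and PSMB8 overlap the annotated PSMB8-AS1, and strand use in counting was not stated.

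**Figure D1:**
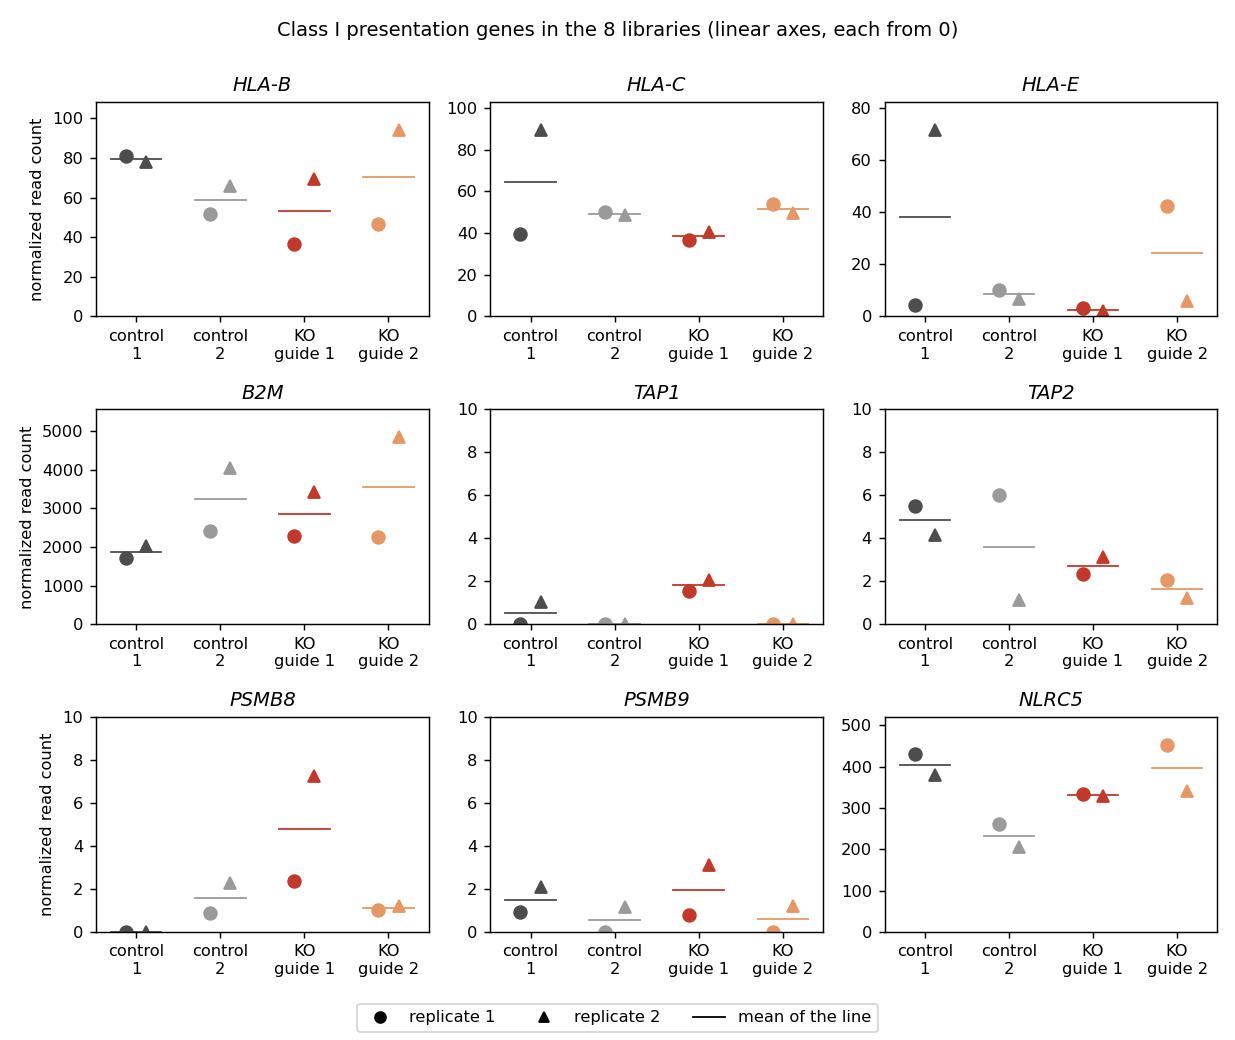
Normalized read count (vertical axes, linear from 0) of the 9 members in each of the 4 lines (horizontal axes). Circles are replicate 1, triangles replicate 2 and bars the mean of the line. B2M lies between 1708 and 4831 and NLRC5 between 205 and 452, HLA-B, HLA-C and HLA-E lie below 100, and the other 4 genes below 10.

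The low counts were shared by the neighbours of these genes. From HLA-F to TAPBP (chromosome 6, 29723434 to 33314078, RefSeq GRCh38.p14) the table held 137 protein-coding genes, of which 14 (10.2%) passed the filter, against 62.1% of 857 elsewhere on chromosome 6 and 66.7% of 18126 on other chromosomes. No gene of the stretch reached a mean of 100, while 47.7% of the other chromosome 6 genes did, and HLA-B was its highest at 65.4. All 137 together held 349 to 655 reads per library, 0.00209% to 0.00319% of its total. The run of genes below 100 was wider than the stretch itself: 166 genes lay between ZSCAN31, 3.03 Mb before HLA-B, and CUTA, 2.06 Mb after it. A mean below 100 was common elsewhere on chromosome 6, where the median was 75.3. This cut therefore does not mark where the low counts begin or end.

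Genes that every dividing cell uses were among them. RPS18, a protein of the small ribosomal subunit, had 4.16 to 14.7 normalized counts and was the lowest of 77 cytosolic ribosomal protein genes per kilobase of exon, 769-fold below their median. It was not alone in being low. The next lowest, RPS9, lies outside this stretch and had 16.8 per kilobase, against 4.36 for RPS18 and a median of 3356. The stretch also encodes 1 subunit each of 6 stable complexes, chosen after the values had been seen. In all 6 it was the lowest of its complex. LSM2 was 512-fold below the lowest of 6 other subunits of the LSM ring (RNA decay and splicing), and PFDN6 was 3405-fold below the lowest of 5 others of prefoldin, a chaperone. VPS52 was 324-fold below the lowest partner in GARP (vesicle tethering), and SKIC2 56.8-fold in the SKI complex (RNA decay). For NELFE (pausing of RNA polymerase) and CSNK2B (casein kinase 2) the ratios were 28.9 and 22.8.

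Similarity to other genes of the reference chromosomes was checked. Of the 137 genes, 69 shared no 100-base word of their longest transcript with another gene. Of these 69, 7 passed the filter, and the highest mean was 25.5, for PPP1R11. The human reference holds alternate sequences for this region. Which of them the authors' reference held, and how reads with several alignments were counted, is not given in the sources used here, and their part in the low counts was not tested.

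**Figure D2:**
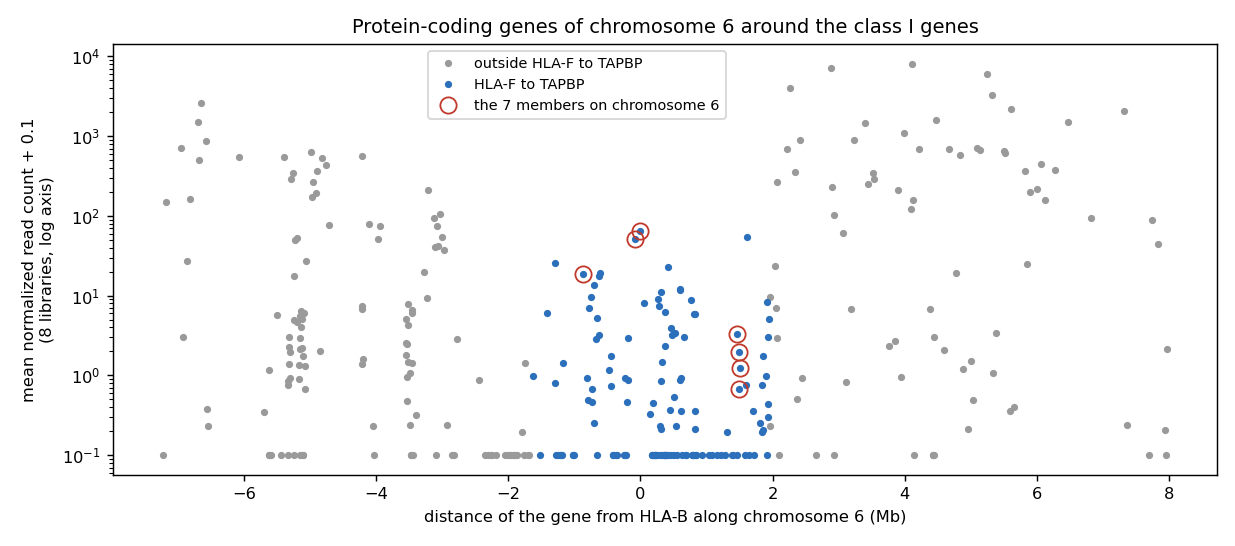
Mean normalized read count over 8 libraries plus 0.1 (log axis) of protein-coding genes against their distance from HLA-B in Mb. Blue points are genes from HLA-F to TAPBP, grey points other genes, and red circles the 7 members on chromosome 6. Points above 100 are found on both sides of the blue stretch and none within it.

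**Figure D3:**
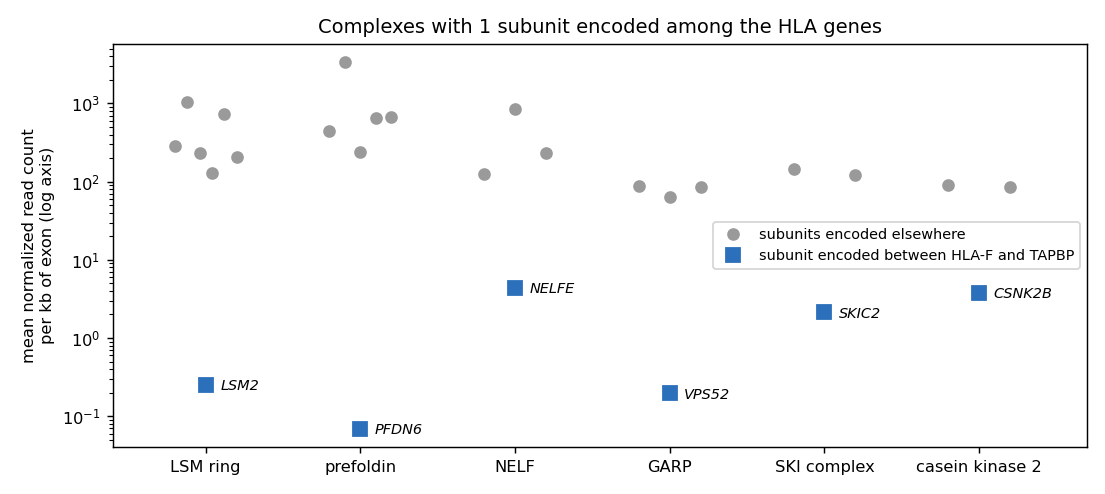
Mean normalized read count per kilobase of exon (log axis) for subunits of 6 complexes. Blue squares are subunits encoded between HLA-F and TAPBP and grey circles the other subunits. Each square lies below all circles of its complex, by 22.8-fold to 3405-fold from the nearest.

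B2M (Entrez gene 567, chromosome 15, 44711517 to 44718145), the light chain shared by all class I heavy chains, had normalized counts of 1708 and 2029 (control line 1) and 2399 and 4054 (control line 2). It had 2270 and 3411 in KO guide 1 and 2247 and 4831 in KO guide 2. The KO-labelled libraries averaged 3190 ± 1222 and the control libraries 2547 ± 1043 (SD over 4 libraries each, from 2 lines). The highest library was KO-labelled and the lowest a control, but the arms overlapped. The log2 difference, on log2(value + 1), was 0.33 (SE 0.38, limma adjusted p = 0.821), with a 95% interval of -0.50 to 1.16.

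NLRC5 (Entrez gene 84166, chromosome 16, 56989557 to 57083520), the transactivator, had 429 and 379 normalized counts in control line 1, 261 and 205 in control line 2, 334 and 330 in KO guide 1 and 452 and 340 in KO guide 2. Both libraries of control line 2 lay below the other 6, and the highest library was replicate 1 of KO guide 2. The arms averaged 364 ± 58.7 in KO-labelled and 318 ± 103 in control libraries (SD over 4 libraries each, from 2 lines). Their log2 difference was 0.24 (SE 0.26, limma adjusted p = 0.804, 95% interval -0.32 to 0.80). The annotated pseudogene CFAP69P1 overlaps NLRC5.

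The question of the series was what differs between KO and control. Of the 5 tested members, limma called 0 at an adjusted p under 0.05, where 0.235% of 14040 genes were called, and 0 had an unadjusted p under 0.05. The quasi-likelihood test of edgeR and DESeq2, both on reads, also called 0. Both treated the libraries of a line as independent, unlike limma, and DESeq2 gave HLA-E no adjusted p. In none of the 5 did the 4 KO-labelled libraries lie on one side of the 4 controls, a separation seen in 10.6% of tested genes. The median log2 difference of the 5 was -0.23 (2 positive, 3 negative), beside 0.00 (0.000732) over all genes tested. For HLA-B it was -0.23 (95% interval -1.07 to 0.62), for HLA-C -0.27 (-1.05 to 0.50) and for HLA-E -0.80 (-3.42 to 1.81), with adjusted p-values from 0.847 to 0.895. These intervals include 2-fold decreases of the heavy chains. The HLA-E value became 0.04 without replicate 2 of control line 1.

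Each KO-labelled line was compared with both control lines in a model with a mean per line. In KO guide 1, the line with little ANXA4 transcript, 0 of the 5 members were called (7.01% of all genes were), and 0 by edgeR, by DESeq2 or at an unadjusted p under 0.05. NLRC5 differed by 0.12 on the log2 scale (95% interval -0.26 to 0.50) and B2M by 0.21 (-0.52 to 0.94). In KO guide 2, again 0 of 5 were called by limma, edgeR or DESeq2 or had an unadjusted p under 0.05, with 11.2% of all genes called by limma. B2M was at 0.45 (-0.28 to 1.18, limma adjusted p = 0.423) and NLRC5 at 0.36 (-0.02 to 0.74, adjusted p = 0.213) in that line.

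With the replicate number as a block, both B2M (limma adjusted p = 0.0293) and NLRC5 (0.049996) were called as higher in KO guide 2, where 27.4% of all genes were called. Single libraries decided these calls. With the block, B2M lost its call without replicate 2 of KO guide 2 (log2 difference 0.16, limma adjusted p = 0.492), without replicate 2 of control line 1 (0.31, 0.124), and without replicate 1 or 2 of control line 2 (adjusted p = 0.102 and 0.0641). NLRC5 lost it without any 1 of the control or KO guide 2 libraries, at adjusted p-values from 0.0687 to 0.318. Both comparisons with controls share the control libraries. Set against each other, the KO-labelled lines had 0 of 5 members called by limma, edgeR or DESeq2 and 0 at an unadjusted p under 0.05 (6.94% of all genes by limma), with B2M 0.24 and NLRC5 0.24 higher in KO guide 2.

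The control lines, with no knockout in either, differed more in NLRC5. It was 0.80 lower in control line 2 on the log2 scale (-0.80 for line 2 minus line 1, SE 0.19, 95% interval -1.24 to -0.36), with both of its libraries below both of control line 1. The limma adjusted p was 0.0757, and 0 of the 5 members were called, where 2.13% of all genes were. It was the only member with an unadjusted p under 0.05. DESeq2 called NLRC5 (adjusted p = 0.0267, 4.67% of all genes), and edgeR did not. With the replicate number as a block, limma called NLRC5 (adjusted p = 0.00409) and B2M, 0.74 higher in control line 2 (0.00996), with 12.5% of all genes called. In that fit NLRC5 was not called without replicate 2 of control line 1 (0.0701) or without replicate 2 of control line 2 (0.0777), and B2M without replicate 2 of control line 1 (0.208) or replicate 1 or 2 of control line 2 (0.068 and 0.141).

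**Figure D4:**
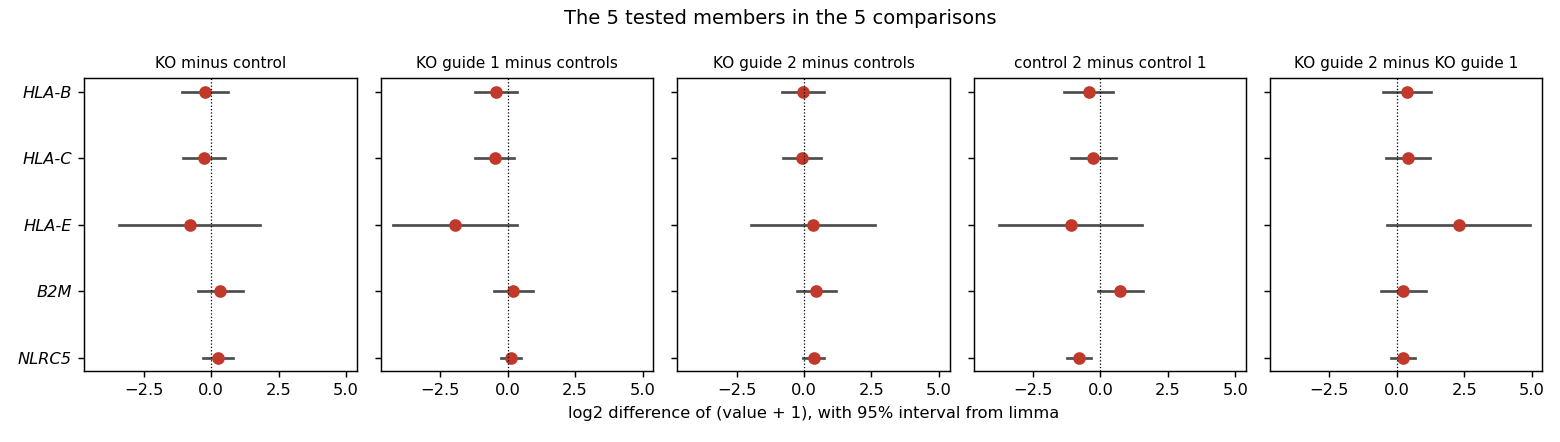
Log2 difference (horizontal axes, on log2(value + 1)) of the 5 tested members in 5 comparisons. Points are limma estimates and bars their 95% intervals. The bars include 0 everywhere except for NLRC5 between the control lines (-1.24 to -0.36), and HLA-E has the widest.

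B2M and NLRC5 moved in opposite directions between replicates. B2M was higher in replicate 2 in 4 of 4 lines, by 1.19-fold in control line 1 up to 2.15-fold in KO guide 2. With line as a term the log2 difference was 0.67 (SE 0.11, limma adjusted p = 0.00344), in a comparison added after the data were seen that called 17.6% of all genes and 1 of the 5 members. The call held without any 1 of the 8 libraries (adjusted p-values from 0.00273 to 0.0346). NLRC5 was lower in replicate 2 in 4 of 4 lines, at -0.24 (SE 0.10, limma adjusted p = 0.123). HLA-B was at 0.55 (adjusted p = 0.0728). The labels do not say what separates the replicates. The library with the most B2M, replicate 2 of KO guide 2, also had the largest mitochondrial share of reads, 13.8%, against 4.67% to 9.05% in the others. The part of that share in the difference was not tested.

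**Figure D5:**
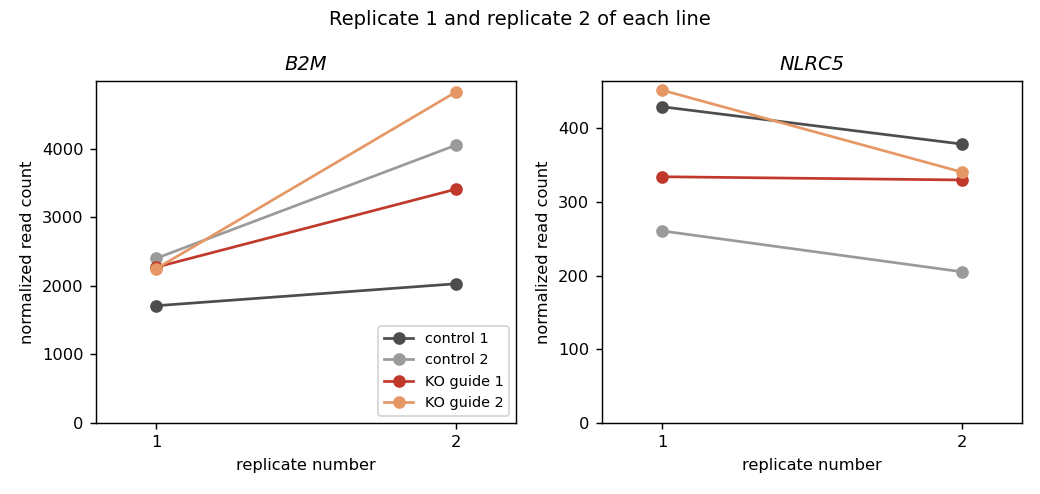
Normalized read count (vertical axes, from 0) of B2M and NLRC5 in replicate 1 and replicate 2 (horizontal axes). Each line joins the libraries of 1 cell line. All 4 lines rise for B2M, most in KO guide 2 (2.15-fold), and all 4 fall for NLRC5.

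Likeness among the members differed between libraries and line means. Pearson's r of log2 values over 8 libraries, which are 4 lines with 2 replicates, was 0.30 for HLA-B with HLA-C, 0.34 for HLA-B with B2M and 0.06 for HLA-B with NLRC5. It was 0.0069 for HLA-B with HLA-E, -0.56 for B2M with NLRC5 and 0.89 for HLA-C with HLA-E, a pair that shares its highest library. Over the 4 line means r was 0.96 for HLA-B with HLA-C, 0.93 for HLA-B with HLA-E and 0.96 for HLA-C with HLA-E, each from 4 points. With B2M it was -0.63 for HLA-B, -0.49 for HLA-C, -0.31 for HLA-E and -0.46 for NLRC5. NLRC5 with the heavy chains gave 0.32 to 0.56. In control line 1, replicate 2 alone held the high counts of HLA-C (89.4, against 39.5) and HLA-E (71.8, against 4.60). In KO guide 2, replicate 1 alone held the high count of HLA-E (42.4, against 6.04). The HLA-E means of these lines thus rest mostly on a single library each. The tested genes most like the mean of the 5 scaled members were ICAM1 (an adhesion receptor for leukocytes, r = 0.98), RPP25, MARCHF3, DMAP1 and PADI1 (0.94 to 0.96), among 11233 genes with a mean of at least 50. ICAM1 ran from 2272 to 8097 normalized counts. The largest of 11233 such values is high by selection, and r is given as a description. The mean weighs the low counts of HLA-B, HLA-C and HLA-E as much as those of B2M and NLRC5. It is therefore not a measure of class I expression.

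Other genes of the pathway were taken from 8 lists with 66 genes. The 14 that lie in the HLA-F to TAPBP stretch, among them MICA, TAPBP (tapasin) and the class II genes, had means of 0 to 8.04 and none passed the filter. Of the 52 elsewhere, 50 passed. Between KO and control 0 of these 50 were called by limma, where 0.235% of all genes were, with a median log2 difference of 0.04. The count was 1 of 50 in KO guide 1 (7.01% of all genes) and 1 of 50 between the KO-labelled lines (6.94%). In KO guide 1 PVR, a ligand of NK and T cell receptors, was called at -0.45 (adjusted p = 0.0498), a call lost with edgeR, with a pseudocount of 0.1, with no filter, with equal totals and without any 1 library of that line or of the controls (adjusted p up to 0.320). In KO guide 2, 3 were called higher and 3 lower, 6 of 50 where 11.2% of all genes were called, so the share was near that background. Between the control lines 0 were called (2.13% of all genes). Between the KO-labelled lines JAK1 was called, 0.69 higher in KO guide 2 (adjusted p = 0.0436), a call that held only without replicate 2 of KO guide 2 among the fits without 1 library (adjusted p up to 0.214). With the replicate number as a block, 12 of the 50 were called in KO guide 1 (24.4% of all genes) and 12 in KO guide 2 (27.4%). The same fit called 11 when the KO-labelled lines were compared (24.5% of all genes) and 10 when the controls were (12.5%).

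Against that background of 11.2%, 1 of 5 tested loading and chaperone genes changed in KO guide 2 against the controls, HSPA5, a general chaperone of the endoplasmic reticulum (-0.61, limma adjusted p = 0.0375). Of 8 other proteasome genes, 3 changed there. PSMB10, the third immunoproteasome subunit, encoded on chromosome 16, rose by 0.70 (adjusted p = 0.0421), and the proteasome activator PSME1 by 0.64 (0.015). PSMB7, the standard subunit that PSMB10 replaces, fell by 0.50 (0.0228). Of 13 genes of interferon receptor signalling, 1 rose, the kinase JAK1, by 1.19 (0.0022). Of 6 inhibitory ligands, 1 fell, NECTIN2, at -0.47 (0.0257). Of these 6 calls in KO guide 2 only that of JAK1 held without each of the 8 libraries in turn (log2 difference 0.95 to 1.43, adjusted p up to 0.0137). PSME1 lost its call without replicate 1 of control line 1 or replicate 2 of KO guide 2, PSMB7 without any 1 of 4 libraries, and HSPA5, PSMB10 and NECTIN2 without any 1 of 7, at adjusted p-values up to 0.17. Without the block, limma called none of the 10 promoter factors, such as RFX5, in any of these 5 comparisons. In none of them did it call any of the 4 trimming aminopeptidases, such as ERAP1. The 5 comparisons called 0.235% to 11.2% of all genes, so 0 calls among so few genes is no result about them. PSMB10 had 862 and 1131 normalized counts (control line 1), 617 and 894 (control line 2), 929 and 1105 in KO guide 1 and 1297 and 1498 in KO guide 2, so that only KO guide 2 lay above all controls. IRF1, which carries interferon signals to class I promoters and was picked after its values were seen, had 546 to 577 normalized counts in the control and 659 to 901 in the KO-labelled libraries. The arms did not overlap, as in 10.6% of tested genes, and the log2 difference was 0.38 (SE 0.16, limma adjusted p = 0.402).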

How the data were processed

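The authors deposited 1 table of normalized read counts, a signal on a linear scale with 1 column per library and no replicates pooled. Per the file headers, reads were counted per Entrez gene with featureCounts. The submitters' processing notes name fastp 0.23.2, HISAT2 2.2.1, featureCounts 2.0.1, DESeq2 2.11.40.8 and the build hg38 (GRCh38). Strand use and the treatment of reads with several alignments are not given in the sources used here. All values above 0 (100%) were whole multiples of 1 factor per library within a relative tolerance of 1e-06, so reads were recovered. Reads carry no molecular identifiers, and limits from counts cover counting error only.

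Symbols (27745 of 28395 genes) and coordinates came from RefSeq GRCh38.p14. Exon lengths and transcript words came from GENCODE 29, and promoter sequences from RefSeq. The filter on low values kept the 14040 genes that reached 10 in 2 or more libraries. Their log2(value + 1) entered limma 3.58.1 (R 4.3.3) with a mean-variance trend. For KO against control the correlation between libraries of a line was estimated at 0.33. Other comparisons used a mean per line and do not cover variation between lines. The Benjamini-Hochberg adjustment ran over all genes tested. The limma fits for KO against control, for KO guide 1 and for the replicates were tested on simulated data. Those libraries were drawn as independent, so that test does not cover correlation between libraries of a line or shifts shared by replicates. Replicates measure only the spread between these libraries, which may be technical.

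Members and lists were chosen with earlier results of these data known. The named genes were the 9 members, list genes called in any of the 5 planned comparisons, and the 5 genes most like the members. Other genes given with values (neighbours on chromosome 6, complex subunits, IRF1 and the pathway genes of the replicate comparison) were chosen after their values were seen. Replicate 2 minus replicate 1 correlated at 0.285 to 0.501 across genes in all 6 pairs of lines, above the limit of 0.1, so the replicate block is printed where it changed a call. Alternatives were pseudocounts of 0.1 and 10, other filters, equal totals, TMM, edgeR 4.0.16, DESeq2 1.42.0, the block, line means, a separate mean per line, and leaving out each library.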

Additional observations from a re-analysis of the deposited data

Results flagged for a closer look

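In 20 sets of 4 libraries (the 9 members and ANXA4, each in control and in KO-labelled libraries), 4 had 1 library far from the other 3. For 4 independent values from a normal distribution, chance flags about 1 in 20 such sets. That rate does not hold here, as libraries of a line are not independent and some counts are near 0. A set with reads in only 1 library is always flagged, as TAP1 was. HLA-E stood out in both arms, with 71.8 normalized counts in replicate 2 of control line 1 and 42.4 in replicate 1 of KO guide 2. TAP1 reached 1.04 in 1 control library, which is 1 read, the other 3 being at 0. NLRC5 was at 452 in replicate 1 of KO guide 2, and the other 3 KO-labelled libraries lay between 329.9 and 340.4. ANXA4 differed between the 2 KO-labelled lines by 3.998 on the log2 scale (KO guide 2 minus KO guide 1, limma adjusted p = 0.00014).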

How the results depend on the processing

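The number of members called was 0 under all 19 alternatives for KO against control and all 17 for KO guide 1 and for KO guide 2 minus KO guide 1. The replicate block raised it to 2 for KO guide 2 and to 2 between the control lines, where DESeq2 gave 1. For replicate 2 minus replicate 1 it was 1 in the alternatives that kept all libraries and 1 to 2 without single libraries, HLA-B being called without either library of control line 1 (adjusted p 0.0466 and 0.0461). Signs were not stable. HLA-B in KO guide 2 was 0.037 with edgeR and 0.043 with DESeq2, against -0.04. For replicate 2 minus replicate 1, HLA-E was -0.0060 with a pseudocount of 0.1, -0.039 with equal totals and -0.24 with DESeq2, against 0.03. Leaving out 1 library moved HLA-E from -1.53 to 0.041 for KO against control. In KO guide 1 it moved HLA-B from -0.87 to 0.030 and B2M from -0.086 to 0.50. In KO guide 2 it moved HLA-B from -0.54 to 0.46, HLA-C from -0.36 to 0.22, HLA-E from -0.97 to 1.66 and B2M from -0.10 to 1.00. Between the control lines HLA-C ran from -0.85 to 0.31 and HLA-E from -2.95 to 0.75. Between the KO-labelled lines HLA-B ran from -0.12 to 0.88 and B2M from -0.31 to 0.80. For replicate 2 minus replicate 1 HLA-C ran from -0.0060 to 0.42 and HLA-E from -1.20 to 0.91. The cause of these changes was not tested. HLA-E has no value with the filter at 50. For KO against control, the edgeR and DESeq2 fits treated the libraries of a line as independent. Over all genes, the 33 calls for KO against control became 71 with no filter, 1474 with a separate mean per line, 0 with line means, 186 with edgeR, 850 with DESeq2 and 7 to 39 without single libraries. The replicate block raised the calls from 984 to 3432 in KO guide 1, from 1573 to 3851 in KO guide 2, from 299 to 1752 between the control lines and from 975 to 3442 between the KO-labelled lines. The 299 became 183 with no filter and 655 with DESeq2. Without single libraries the 984 became 148 to 1312, the 1573 became 813 to 1363, the 299 became 43 to 410, the 975 became 87 to 1003 and the 2470 calls between replicates became 706 to 2274. The lowest of these counts came without a library of KO guide 1, of control line 1, of control line 1, of KO guide 1 and of control line 2, in that order. Pathway genes called for KO against control were 0, but 3 with a separate mean per line and 2 with DESeq2. With no filter HSPA5, PSMB10 and, between the KO-labelled lines, JAK1 were not called, and neither was that JAK1 difference with equal totals. NLRC5 kept its sign in all alternatives of all 6 comparisons. TAP1 and PSMB9 never exceeded 3 reads in a library, so no change in them could be measured.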

Other observations

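Of the 50 pathway genes tested, 15 (30.0%) were called by limma between replicate 2 and replicate 1, 9 higher and 6 lower in replicate 2, against 17.6% of all genes. Without single libraries the number was 6 to 13, and 3 of the 15 were called without each of the 8 libraries in turn. These were CD74, the class II invariant chain (1.26 on the log2 scale), the loading chaperone PDIA3 (0.56) and RFX5, a factor of class I and class II promoters, which fell by 0.52. CD274 (PD-L1), an inhibitory ligand of T cells, had 170 and 375 normalized counts in replicates 1 and 2 of control line 1, and 66.2 and 66.8 in those of control line 2. It had 40.7 and 174 in KO guide 1 and 52.7 and 109 in KO guide 2, so replicate 2 was the higher in 4 of 4 lines. Its log2 difference was 1.06 (adjusted p = 0.0136), and the call was lost without either library of KO guide 2 (adjusted p up to 0.0576).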
